A study of Saccharomyces cerevisiae with 18 samples.

Results

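The unfolded protein response and protein folding in the endoplasmic reticulum (ER) of yeast were followed through 10 genes, named by identifier, of the 6600 genes in each count table. They were HAC1 (YFL031W), KAR2 (YJL034W), LHS1 (YKL073W), SIL1 (YOL031C), SCJ1 (YMR214W), JEM1 (YJL073W), PDI1 (YCL043C), EUG1 (YDR518W), MPD1 (YOR288C) and ERO1 (YML130C). RNA was sequenced from the Saccharomyces cerevisiae strains LP085-Vc, LP104-17 and LP118, which make the plant steroid diosgenin according to the series. All 3 strains share the background BY4742, a laboratory strain of mating type alpha, and the labels give no genotype, no introduced gene and no clone for any of them. Each strain was grown in flasks in 15 mL of SD complete medium with 2% w/v glucose, at 30 °C and 250 rpm from a starting OD600 of 0.1. Cells were collected at 6 h and at 24 h, which gave the 6 groups LP085-Vc 6 h, LP085-Vc 24 h, LP104-17 6 h, LP104-17 24 h, LP118 6 h and LP118 24 h, with 3 libraries each. The labels do not state that replicate libraries are separate cultures. The p-values therefore speak for the spread among these libraries alone, and that spread may be technical.

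Secretory proteins enter the ER unfolded and are folded there by the Hsp70 chaperone Kar2 (BiP) with its J-domain partners and nucleotide exchange factors, and by protein disulfide isomerases that the oxidase Ero1 keeps oxidised. When unfolded proteins build up, the membrane kinase and nuclease Ire1 cuts an intron out of HAC1 mRNA, and the tRNA ligase Trl1 joins the exons. The spliced mRNA is translated into the transcription factor Hac1, which binds unfolded protein response elements in promoters of ER folding genes. Total HAC1 mRNA, as counted here, includes spliced and unspliced molecules, and counts per gene cannot tell them apart.

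The library totals ran from 5117869 to 7548113 counts, with LP118 6 h the shallowest group, and the 10 genes had between 122 and 28478 reads in any library, so the counting error of the lowest value was 9.05%. All 10 passed the filter on low counts. As a check of the labelled mating type, 4 alpha-specific genes summed to between 467 and 1932 CPM (counts scaled to 1000000 per library, on TMM-scaled library sizes) in every library, and 6 a-specific genes to between 45.6 and 103 CPM. Single genes did not all follow the sums. In LP085-Vc 24 h the a-specific STE6 ran from 53.9 to 71.1 CPM, above the alpha-specific MF(ALPHA)2 at 13.1 to 23.9 CPM. Reads of the marker genes that are mutant in BY4742 were present in a pattern that differed between strains. HIS3 stood at 219 to 636 CPM in every library, URA3 at 0 to 0.134 CPM in LP104-17 and LEU2 at 0 to 0.155 CPM in LP085-Vc. LYS2 ran from 1.24 to 7.91 CPM in LP085-Vc, from 9.38 to 17.7 CPM in LP104-17 and from 26.5 to 49.8 CPM in LP118. In LP118 the median log2 difference from LP085-Vc at 6 h was −0.995 for the 276 tested genes of chromosome V and 0.878 for the 205 of chromosome IX, and none of the 10 genes lies on either chromosome. Each value is a share of the RNA of a whole culture, so fewer cells with a transcript and less of it per cell cannot be told apart.

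LP085-Vc and LP104-17 had high levels of the 10 genes at 6 h and low levels at 24 h, and LP118 changed less. From 6 h to 24 h, all 10 genes fell in LP085-Vc, where 38.3% of 6131 tested genes were called lower, and all 10 fell in LP104-17, where 35.7% were. Their median log2 change was −2.42 in LP085-Vc and −2.25 in LP104-17, against 0.00 over all tested genes in each. In LP118 7 genes fell, HAC1 rose, and JEM1 and SIL1 were not called, against 30.5% of all genes called lower and 26.6% called higher. The median change of the 10 genes in LP118 was −0.44, and that of all tested genes was −0.05. Calls, here and below, are those of edgeR's quasi-likelihood test with Benjamini-Hochberg adjustment over the 6131 genes, at 0.05.

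**Figure D1:**
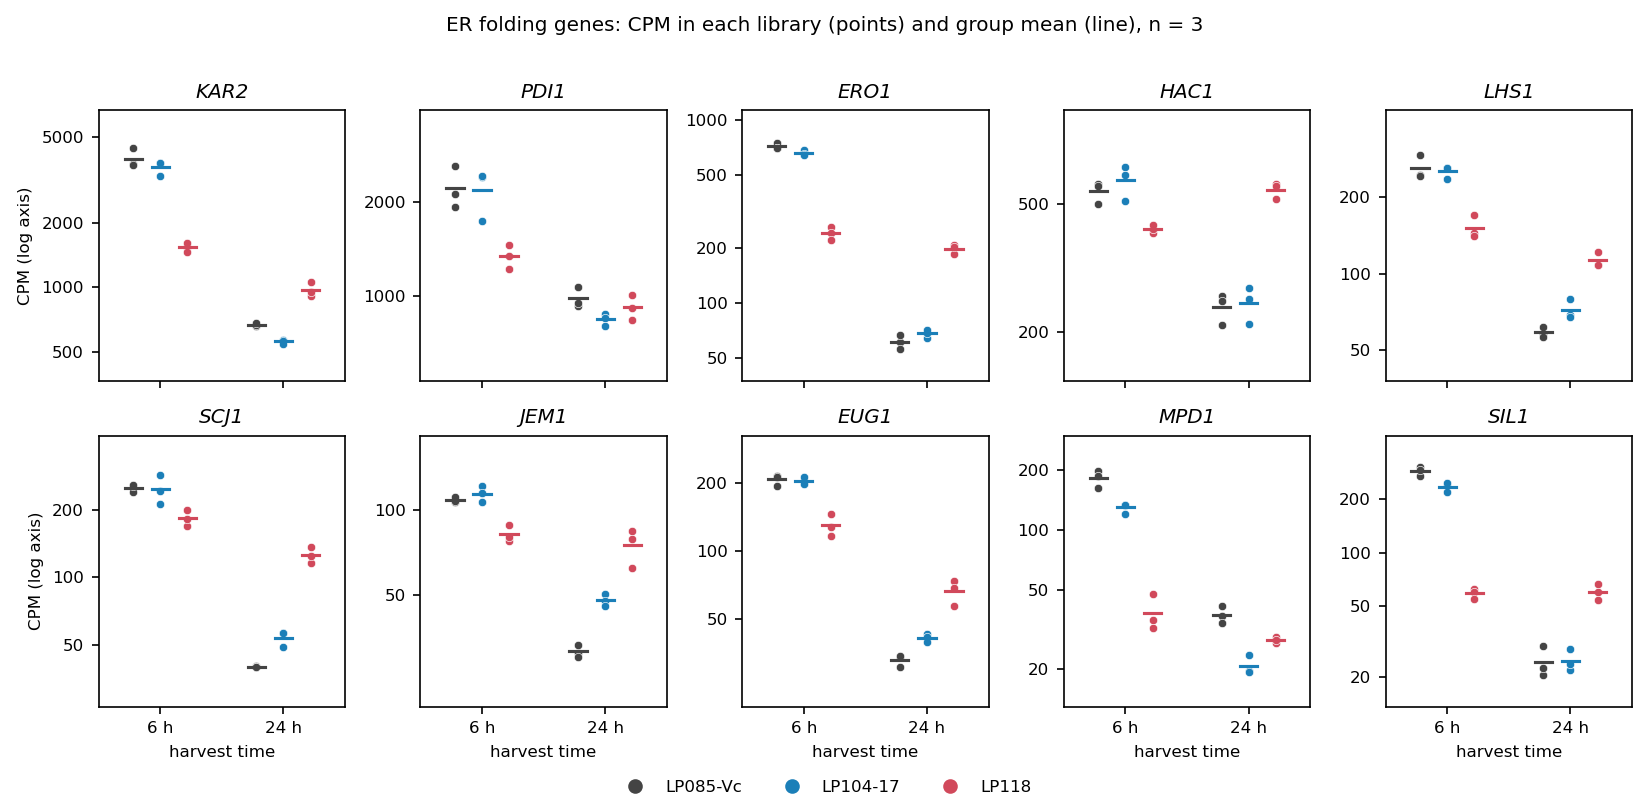
Level of each of the 10 genes in CPM (vertical log axis) at 6 h and 24 h, with a point for each library and a line at the mean of 3 libraries, coloured by strain. KAR2 fell from a mean of 3956 to 669 CPM in LP085-Vc and from 3624 to 559 CPM in LP104-17, and LP118 lay between these levels at 1536 and 972 CPM.

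The strains separated in opposite directions at the 2 times. At 6 h all 10 genes were lower in LP118 than in LP085-Vc, with 33.8% of all genes called lower, and all 10 were lower than in LP104-17, with 29.8% called lower. At 24 h 8 of the 10 were higher in LP118 than in LP085-Vc, with 38.5% of all genes called higher and 39.2% lower, MPD1 was lower and PDI1 was not called. At 24 h 9 of the 10 were higher in LP118 than in LP104-17, with 35.0% of all genes called higher, and PDI1 was not called. The 3 libraries of LP118 lay wholly below those of LP085-Vc for all 10 genes at 6 h, where libraries of the 2 groups did not overlap downward in 35.9% of all genes. The comparisons of a time share libraries, so their counts are not independent of each other.

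LP104-17 and LP085-Vc differed little at 6 h. MPD1 alone was called, and it was lower in LP104-17, in a comparison where 5.76% of all genes were called lower. SIL1 was lower by 0.30 ± 0.11 on the log2 scale without being called (edgeR adjusted p = 0.0895). At 24 h 6 of the 10 genes were called, with 25.1% of all genes called higher and 27.4% lower. LHS1, SCJ1, JEM1 and EUG1 were higher and KAR2 and MPD1 lower in LP104-17, with log2 differences between −0.84 and 0.60.

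**Figure D2:**
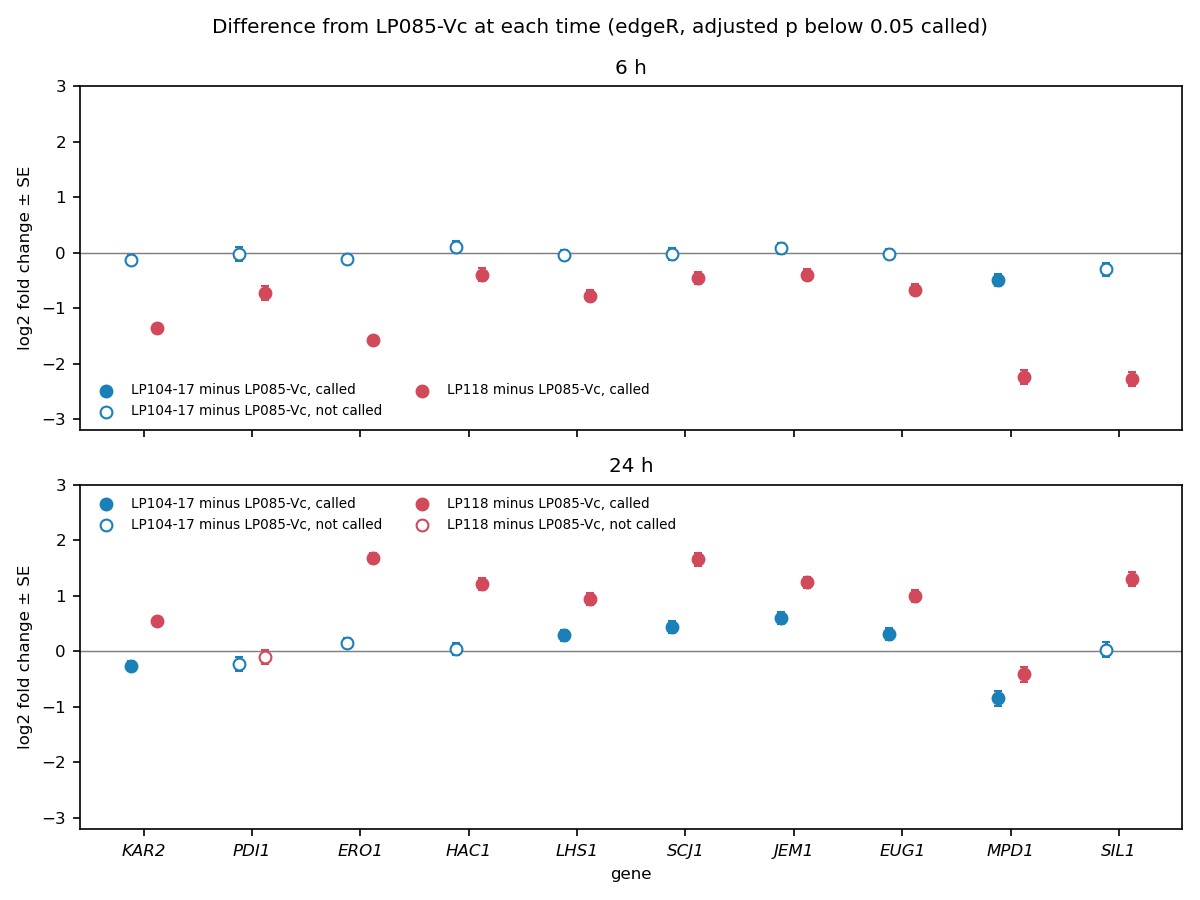
Log2 fold change ± SE of each gene against LP085-Vc at 6 h (upper panel) and 24 h (lower panel), with filled points where edgeR's adjusted p is below 0.05 and open points where it is not. LP118 lies below 0 for all 10 genes at 6 h and above 0 for 8 called genes at 24 h, while LP104-17 stays between −0.84 and 0.60.

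HAC1, the gene of the response's transcription factor, lies on chromosome VI at 75179 to 76147 on the plus strand of build R64, with an intron of 252 bases at 75840 to 76091. In LP085-Vc it stood at 575, 568 and 501 CPM at 6 h and at 258, 249 and 211 CPM at 24 h. In LP104-17 it stood at 650, 511 and 612 CPM at 6 h and at 212, 274 and 253 CPM at 24 h. In LP118 it stood at 405, 416 and 430 CPM at 6 h and at 576, 568 and 516 CPM at 24 h. The LP118 libraries were thus the lowest at 6 h and the highest at 24 h, with no overlap with either other strain at either time. HAC1 fell by 1.19 ± 0.11 on the log2 scale in LP085-Vc (edgeR adjusted p = 7.71e-09) and by 1.26 ± 0.11 in LP104-17 (4.91e-09), and in LP118 it rose by 0.41 ± 0.11 (0.00364). It was the only 1 of the 10 genes called higher at 24 h than at 6 h in any strain. At 24 h HAC1 was 2.31-fold higher in LP118 than in LP085-Vc (log2 difference 1.21 ± 0.11, edgeR adjusted p = 5.45e-09), after being 1.31-fold lower at 6 h (−0.39 ± 0.11, 0.0037).

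KAR2, the ER Hsp70 chaperone and the classic target of the response, lies on chromosome X at 381327 to 383375 on the plus strand. Its promoter is shown because it held the matches to the response element and to the heat shock motif together. The stretch below is X:381112-381188, plus strand, build R64, bases −215 to −139 counted from the start codon. Capitals mark 2 matches to GAANNTTC, a form of the heat shock element, and 1 to CAGCGTG, the core of the KAR2 response element.
KAR2: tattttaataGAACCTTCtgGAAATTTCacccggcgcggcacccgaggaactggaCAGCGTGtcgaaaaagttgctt

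In LP085-Vc KAR2 stood at 4442, 3732 and 3695 CPM at 6 h and at 658, 670 and 678 CPM at 24 h. In LP104-17 the values were 3773, 3299 and 3801 CPM at 6 h and 571, 561 and 547 CPM at 24 h. In LP118 they were 1547, 1602 and 1459 CPM at 6 h and 1055, 912 and 947 CPM at 24 h. Every LP118 library was below every library of the other strains at 6 h and above them all at 24 h. KAR2 fell 5.91-fold in LP085-Vc (log2 change −2.56 ± 0.09), 6.48-fold in LP104-17 (−2.70 ± 0.09) and 1.58-fold in LP118 (−0.66 ± 0.09), with edgeR adjusted p-values of 3.17e-15, 2.32e-15 and 2.66e-06. The log2 difference of LP118 from LP085-Vc was −1.36 ± 0.09 at 6 h (edgeR adjusted p = 4.38e-11) and 0.54 ± 0.09 at 24 h (1.16e-05).

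SIL1, a nucleotide exchange factor of Kar2, had the widest swing of the genes that act with KAR2. It lies on chromosome XV at 266264 to 267529 on the minus strand. In LP085-Vc it stood at 269, 301 and 290 CPM at 6 h and at 20.6, 22.6 and 30.0 CPM at 24 h. In LP104-17 the values were 236, 245 and 217 CPM at 6 h and 21.9, 28.9 and 23.7 CPM at 24 h. In LP118 they were 62.9, 60.3 and 54.9 CPM at 6 h and 66.4, 59.7 and 54.3 CPM at 24 h. The LP118 libraries of the 2 times overlapped each other, and they overlapped neither other strain at either time. SIL1 fell by 3.56 ± 0.13 on the log2 scale in LP085-Vc (edgeR adjusted p = 5.21e-15) and by 3.22 ± 0.13 in LP104-17 (3.16e-14). In LP118 the change was 0.02 ± 0.12 and was not called (0.905). At 6 h SIL1 was 4.83-fold lower in LP118 than in LP085-Vc (edgeR adjusted p = 2.73e-12), and at 24 h it was 2.47-fold higher (1.81e-08).

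LHS1, an Hsp70-related chaperone that also serves Kar2 as an exchange factor, lies on chromosome XI at 296430 to 299075 on the plus strand. Its 6 h libraries ran from 242 to 293 CPM in LP085-Vc, from 236 to 262 CPM in LP104-17 and from 140 to 170 CPM in LP118. Its 24 h libraries ran from 56.6 to 61.7, from 67.3 to 79.5 and from 108 to 122 CPM in the same order. The fall over time was 4.42-fold in LP085-Vc, 3.52-fold in LP104-17 and 1.35-fold in LP118, all called by edgeR. At 24 h LHS1 was higher in LP104-17 than in LP085-Vc by 0.29 ± 0.10 on the log2 scale (edgeR adjusted p = 0.0277). That call was lost without replicate 1 (0.0616) or replicate 2 (0.0798) of LP085-Vc 24 h, and without replicate 1 of LP104-17 24 h (0.138).

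SCJ1 and JEM1 encode J-domain proteins of the ER lumen that stimulate the ATPase of Kar2, and JEM1 is also known for its part in nuclear fusion during mating. SCJ1 lies on chromosome XIII at 695350 to 696483 and JEM1 on chromosome X at 303181 to 305118, both on the plus strand. The 6 h libraries of SCJ1 ran from 240 to 258 CPM in LP085-Vc, from 212 to 287 CPM in LP104-17 and from 169 to 199 CPM in LP118. The 24 h libraries ran from 39.7 to 40.0, from 48.8 to 56.4 and from 116 to 137 CPM. SCJ1 fell 6.31-fold in LP085-Vc, 4.59-fold in LP104-17 and 1.46-fold in LP118, all called by edgeR. At 24 h it was 3.15-fold higher in LP118 than in LP085-Vc (log2 difference 1.65 ± 0.11, edgeR adjusted p = 4.09e-11), with no overlap of libraries.

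JEM1 had the smallest difference over time in LP118 after SIL1. Its libraries ran from 78.0 to 88.4 CPM at 6 h and from 62.1 to 83.9 CPM at 24 h in LP118, and these ranges overlapped. The change in LP118 was −0.13 ± 0.10 on the log2 scale and was not called (edgeR adjusted p = 0.26). JEM1 fell from 108 ± 2.24 to 31.7 ± 1.61 CPM in LP085-Vc and from 114 ± 7.76 to 48.0 ± 2.31 CPM in LP104-17 (SD, n = 3). It was also the gene with the largest called rise of LP104-17 over LP085-Vc at 24 h, at 0.60 ± 0.11 (edgeR adjusted p = 8.83e-05), with no overlap of libraries.

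PDI1, the main protein disulfide isomerase and an essential gene, lies on chromosome III at 48653 to 50221 on the minus strand. In LP085-Vc it stood at 2604, 1925 and 2122 CPM at 6 h and at 933, 1071 and 955 CPM at 24 h. In LP104-17 the values were 2388, 1736 and 2420 CPM at 6 h and 881, 850 and 804 CPM at 24 h. In LP118 they were 1453, 1345 and 1222 CPM at 6 h and 1012, 843 and 916 CPM at 24 h. All 3 strains overlapped at 24 h when LP118 is set against either other strain, whereas LP118 was lowest at 6 h without overlap. PDI1 had, with HAC1, the smallest change over time in LP085-Vc, a fall of 2.25-fold (log2 change −1.17 ± 0.13), and it fell 2.58-fold in LP104-17 and 1.45-fold in LP118, all called by edgeR. At 24 h the log2 difference of LP118 was −0.10 ± 0.13 from LP085-Vc (edgeR adjusted p = 0.497) and 0.13 ± 0.13 from LP104-17 (0.371).

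EUG1 encodes a non-essential relative of Pdi1 and lies on chromosome IV at 1478608 to 1480161 on the plus strand. Its 6 h libraries ran from 193 to 215 CPM in LP085-Vc, from 198 to 212 CPM in LP104-17 and from 116 to 146 CPM in LP118. The 24 h libraries ran from 30.9 to 34.5, from 39.7 to 43.1 and from 57.2 to 73.6 CPM. EUG1 was the gene of the 10 with the largest called fall in LP118, by 0.97 ± 0.10 on the log2 scale (edgeR adjusted p = 1.48e-07). At 24 h it was higher in LP104-17 than in LP085-Vc by 0.32 ± 0.11 (edgeR adjusted p = 0.0191), a call that was lost without replicate 2 of LP085-Vc 24 h (0.0763) or replicate 1 of LP104-17 24 h (0.0584).

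MPD1, another member of the disulfide isomerase family, lies on chromosome XV at 852121 to 853077 on the minus strand. It was the only 1 of the 10 genes called lower in LP118 than in LP085-Vc at 24 h. In LP085-Vc it stood at 162, 198 and 187 CPM at 6 h and at 36.9, 41.7 and 34.2 CPM at 24 h. In LP104-17 the values were 121, 134 and 134 CPM at 6 h and 19.6, 23.6 and 19.5 CPM at 24 h. In LP118 they were 47.9, 35.2 and 32.2 CPM at 6 h and 27.1, 29.2 and 28.2 CPM at 24 h. LP085-Vc was highest and did not overlap with the other strains at either time. MPD1 was the gene called lower in LP104-17 than in LP085-Vc at both times, by 0.49 ± 0.11 on the log2 scale at 6 h (edgeR adjusted p = 0.00613) and by 0.84 ± 0.14 at 24 h (3.2e-05). In LP118 it was 4.74-fold lower than in LP085-Vc at 6 h (edgeR adjusted p = 5.82e-12) and 1.34-fold lower at 24 h (0.00745), and the 24 h call was lost without replicate 2 of LP085-Vc 24 h (0.0656) and on the authors' FPKM scale (0.175). The fall in LP118 from 6 h to 24 h, by 0.45 ± 0.13 (edgeR adjusted p = 0.00831), was lost without replicate 1 of LP118 6 h (0.0946) and on the FPKM scale (0.15).

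ERO1, the oxidase that passes electrons from Pdi1 to oxygen, lies on chromosome XIII at 11483 to 13174 on the minus strand. In LP085-Vc it stood at 750, 701 and 697 CPM at 6 h and at 61.2, 66.9 and 55.8 CPM at 24 h. In LP104-17 the values were 680, 652 and 645 CPM at 6 h and 64.5, 68.7 and 70.7 CPM at 24 h. In LP118 they were 258, 239 and 221 CPM at 6 h and 206, 184 and 201 CPM at 24 h. As for KAR2 and SIL1, LP118 was lowest at 6 h and highest at 24 h with no overlap. ERO1 fell 11.7-fold in LP085-Vc (log2 change −3.54 ± 0.09, edgeR adjusted p = 4.27e-17) and 9.69-fold in LP104-17 (−3.28 ± 0.09, 1.42e-16). In LP118 it fell 1.22-fold (edgeR adjusted p = 0.00768), a call lost without replicate 2 of LP118 24 h (0.175), on the FPKM scale (0.291) and with only the compared groups in the model (0.054). At 24 h ERO1 was 3.21-fold higher in LP118 than in LP085-Vc (log2 difference 1.68 ± 0.09, edgeR adjusted p = 1.07e-12), after 2.99-fold lower at 6 h (−1.58 ± 0.09, 3.34e-12).

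**Figure D3:**
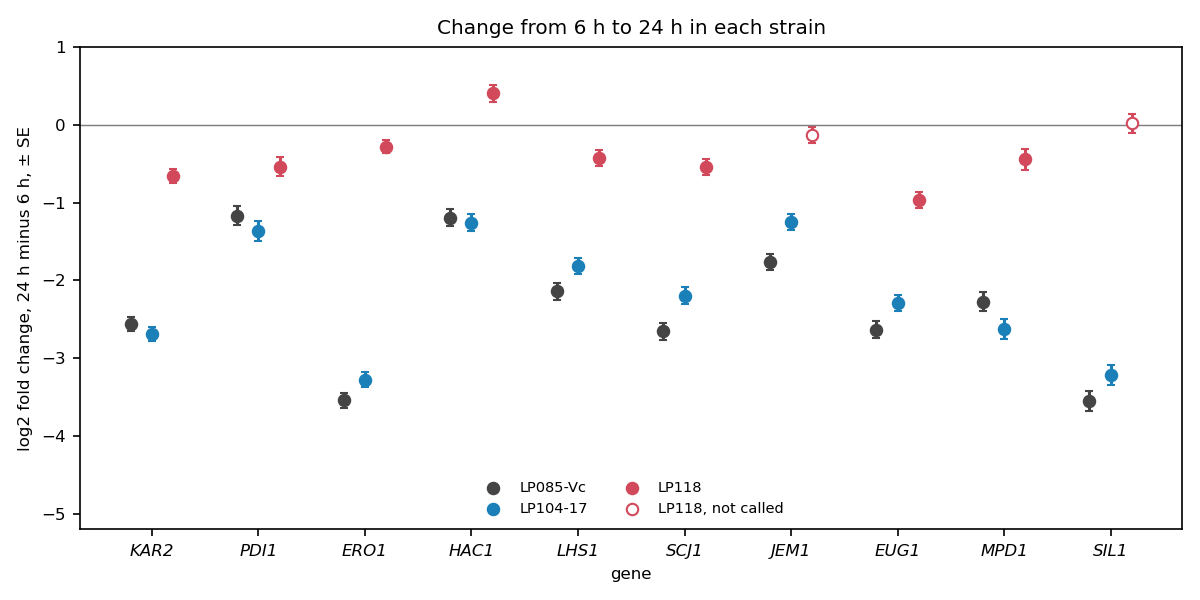
Log2 change ± SE from 6 h to 24 h of each gene in each strain, filled where edgeR's adjusted p is below 0.05 and open where it is not. All 10 genes lie below −1 in LP085-Vc and LP104-17, and in LP118 they lie between −0.97 for EUG1 and 0.41 for HAC1.

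The difference between strains in the change over time was tested directly as an interaction. All 10 genes had a higher change in LP118 than in LP085-Vc, where 30.5% of all genes were called higher, with a median of 1.77 on the log2 scale against 0.00 for all genes. The largest interactions were those of SIL1 (3.58 ± 0.18, edgeR adjusted p = 2.46e-12) and ERO1 (3.26 ± 0.12, 4.36e-14), and the smallest was that of PDI1 (0.63 ± 0.18, 0.00489). All 10 genes also had a higher change in LP118 than in LP104-17, where 24.5% of all genes were called higher, with values from 0.83 for PDI1 to 3.24 for SIL1. Between LP104-17 and LP085-Vc 2 of the 10 were called higher, close to the 17.8% of all genes called higher. The 2 were SCJ1 (0.46 ± 0.15, edgeR adjusted p = 0.0248) and JEM1 (0.52 ± 0.14, 0.00788). The SCJ1 call was lost without replicate 3 of LP085-Vc 6 h (0.0503), replicate 3 of LP104-17 6 h (0.0641), and replicate 2 (0.0604) or replicate 3 (0.06) of LP104-17 24 h.

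The KAR2 difference between LP104-17 and LP085-Vc at 24 h was small. It was −0.26 ± 0.09 on the log2 scale (edgeR adjusted p = 0.0169), and no library of the pair overlapped. The call was lost without replicate 3 of LP085-Vc 24 h (0.0581), replicate 3 of LP104-17 24 h (0.0591) or replicate 2 of LP118 24 h (0.0859), and on the FPKM scale (0.214).

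Levels were compared between genes per length, as the authors' FPKM. In LP085-Vc at 6 h KAR2 led with 1860 ± 142 FPKM (SD, n = 3), ahead of PDI1 with 1360 ± 179, HAC1 with 545 ± 29.8 and ERO1 with 408 ± 5.42 FPKM, and no neighbours among these overlapped. SIL1, SCJ1 and MPD1 followed with overlapping ranges, and EUG1, LHS1 and JEM1 came last without overlap, JEM1 at 53.9 ± 2.68 FPKM. The order in LP104-17 at 6 h began with the same 4 genes. At 24 h PDI1 led in every strain, with 578 ± 39.2 FPKM in LP085-Vc, 547 ± 20.6 in LP104-17 and 621 ± 37.7 in LP118. In LP118 at 24 h HAC1 stood at 603 ± 37.9 FPKM, within the range of PDI1 and above KAR2 at 500 ± 23.4 FPKM, and MPD1 had the lowest mean at 31.1 ± 2.10 FPKM, in a range that overlapped that of JEM1. The files give HAC1 a length of 969 bases, which includes the intron, while the spliced coding sequence has 717 bases. With all its reads kept and set over the spliced length, HAC1 would stand at 737 ± 40.3 FPKM in LP085-Vc at 6 h. In LP118 at 24 h it would stand at 815 ± 51.2 FPKM, above PDI1. These values hold only if no counted read lay in the intron, which counts per gene cannot show.

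Ratios within a library showed how the genes moved against each other. The ratio of KAR2 to PDI1 in FPKM was 1.37 ± 0.096 in LP085-Vc and 1.29 ± 0.14 in LP104-17 at 6 h, and 0.521 ± 0.036 and 0.507 ± 0.013 at 24 h (SD, n = 3). In LP118 it was 0.880 ± 0.057 at 6 h and 0.807 ± 0.020 at 24 h, with ranges that overlapped. The ratio of ERO1 to PDI1 was 0.303 ± 0.035, 0.287 ± 0.054 and 0.166 ± 0.0017 at 6 h in LP085-Vc, LP104-17 and LP118, and 0.0577 ± 0.0033, 0.0748 ± 0.0068 and 0.198 ± 0.0085 at 24 h. The ratio of HAC1 to KAR2 was higher at 24 h than at 6 h in every strain without overlap, from 0.294 ± 0.025 to 0.758 ± 0.089 in LP085-Vc, from 0.344 ± 0.019 to 0.932 ± 0.13 in LP104-17 and from 0.575 ± 0.041 to 1.21 ± 0.094 in LP118. The ratio of SIL1 to KAR2 was lower at 24 h in LP085-Vc and LP104-17 and higher at 24 h in LP118, where it went from 0.0625 ± 0.0028 to 0.100 ± 0.0068. These ratios are a description and were not tested.

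**Figure D4:**
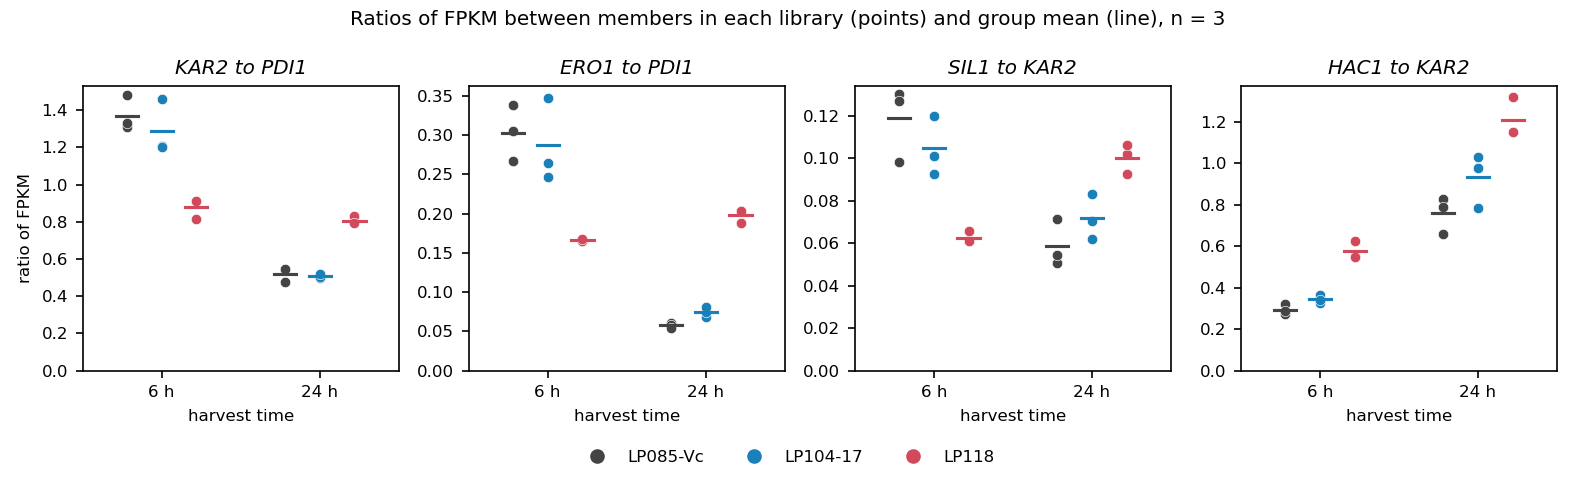
Ratios of FPKM between pairs of the 10 genes in each library (points) with the mean of 3 libraries (lines), at 6 h and 24 h, coloured by strain. The ratio of KAR2 to PDI1 is above 1 at 6 h and near 0.5 at 24 h in LP085-Vc and LP104-17, and lies between 0.792 and 0.914 in all LP118 libraries.

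The promoters were searched for response motifs in the 300 bases before each start codon, on both strands, in 6001 windows of build R64. CAGCGTG lay in the windows of KAR2 and LHS1, 2 of the 10, and in 1.23% of all windows. The looser form CAGNGTG matched the same 2 genes, at the same places, and 5.67% of all windows. TACGTG, the core of a further class of Hac1 site, lay in the windows of ERO1, EUG1, MPD1 and SIL1, 4 of the 10, and in 8.22% of all windows. GAANNTTC lay in those of KAR2 and HAC1 and in 11.5% of all windows, and AGGGG, a stress response element of Msn2 and Msn4, in none of the 10 and in 22.2% of all windows. PDI1, SCJ1 and JEM1 held none of these letters in the window. A match is a description of the letters and not a site.

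The matches to the response elements outside KAR2 are printed to show their surroundings, each 5′ to 3′ on the strand of its gene with the match in capitals. They are XI:296311-296357 (LHS1), XIII:13288-13333 (ERO1, minus strand), IV:1478414-1478459 (EUG1), XV:853154-853199 (MPD1, minus strand) and XV:267606-267651 (SIL1, minus strand) of build R64. In LHS1, EUG1, MPD1 and SIL1 the motif reads on the opposite strand, so that the capitals are its reverse complement. In MPD1 and SIL1 the match lay at the same distance from the start codon, bases −102 to −97.
LHS1: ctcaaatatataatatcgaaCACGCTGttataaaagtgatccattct
ERO1: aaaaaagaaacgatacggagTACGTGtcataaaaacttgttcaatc
EUG1: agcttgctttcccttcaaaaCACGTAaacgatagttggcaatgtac
MPD1: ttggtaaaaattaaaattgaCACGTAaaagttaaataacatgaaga
SIL1: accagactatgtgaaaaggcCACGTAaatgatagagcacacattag

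The 4 genes with a TACGTG match had log2 changes over time in LP085-Vc between −3.56 for SIL1 and −2.27 for MPD1. The 2 genes with CAGCGTG had −2.56 for KAR2 and −2.14 for LHS1. Of the 3 genes with none of the motifs, SCJ1 had −2.66, JEM1 −1.77 and PDI1 −1.17. HAC1, with GAANNTTC as its only match, had −1.19. A link between motif and change was not tested.

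The 4 regulators of the response did not move as a group. IRE1, the sensor, stood at 82.8, 61.7 and 69.9 CPM at 6 h and at 128, 134 and 135 CPM at 24 h in LP085-Vc, and rose there by 0.89 ± 0.14 on the log2 scale (edgeR adjusted p = 8.48e-06). It rose by 0.60 ± 0.14 in LP104-17 (0.000649) and differed by 0.03 ± 0.14 in LP118 (0.847), where it stood at 116 ± 0.496 CPM at 6 h and 119 ± 19.2 CPM at 24 h. At 6 h IRE1 was higher in LP118 than in LP085-Vc by 0.70 ± 0.14 (edgeR adjusted p = 0.000186), when all 10 folding genes were lower. TRL1, the tRNA ligase that joins the HAC1 exons, was higher in LP118 than in LP085-Vc by 1.07 ± 0.12 at 6 h (edgeR adjusted p = 1.91e-07) and by 1.26 ± 0.13 at 24 h (1.86e-08). TRL1 was also higher in LP104-17 than in LP085-Vc at 24 h, by 0.66 ± 0.13 (edgeR adjusted p = 0.000208). Over time it fell by 0.61 ± 0.13 in LP085-Vc (edgeR adjusted p = 0.000272) and by 0.42 ± 0.12 in LP118 (0.00496), the latter a call lost on the FPKM scale, and its change in LP104-17 was −0.18 ± 0.12 (0.188). PTC2, a phosphatase that acts on Ire1, fell over time in every strain, as 7 or more of the 10 genes did. It fell by 1.22 ± 0.10 in LP085-Vc (edgeR adjusted p = 1.82e-09), by 1.22 ± 0.10 in LP104-17 (2.7e-09) and by 0.43 ± 0.10 in LP118 (0.00166), the last a call lost on the FPKM scale. Its change over time was higher in LP118 than in LP085-Vc by 0.80 ± 0.14 (edgeR adjusted p = 0.000102). PTC2 lies on chromosome V, whose median log2 difference of LP118 from LP085-Vc was −0.995 at 6 h and −1.079 at 24 h. The difference of PTC2 was −1.04 ± 0.10 at 6 h (edgeR adjusted p = 2.75e-08) and −0.25 ± 0.10 at 24 h (0.0341). The 24 h call was lost without replicate 2 or 3 of LP085-Vc 24 h, replicate 1 or 2 of LP118 24 h, replicate 2 of LP085-Vc 6 h or LP118 6 h, or replicate 3 of LP104-17 6 h, with differences of −0.14 to −0.22. GCN4, a transcription factor that works with Hac1 and is also on chromosome V, was higher in LP118 than in LP085-Vc at 6 h by 0.47 ± 0.12 (edgeR adjusted p = 0.00148). At 24 h GCN4 was higher than in LP085-Vc both in LP118, by 0.63 ± 0.12 (6.11e-05), and in LP104-17, by 0.73 ± 0.12 (3.26e-05). Between LP118 and LP104-17 it was not called at 6 h (0.0522) or at 24 h (0.491). Of these 4 regulators 3 were thus called higher and 1 lower in LP118 than in LP085-Vc at 6 h, with 32.2% of all genes called higher and 33.8% lower. The change of IRE1 over time was lower in LP118 than in LP085-Vc by 0.86 ± 0.19 (edgeR adjusted p = 0.000821).

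Partners of Kar2 and Pdi1 outside the 10 genes were taken from lists of the same pathway. SEC63, the J-domain protein of the translocon, stood at 274, 257 and 287 CPM at 6 h and at 54.2, 48.5 and 50.2 CPM at 24 h in LP085-Vc, and at 267, 254 and 235 CPM and 215, 188 and 206 CPM in LP118. LP118 overlapped LP085-Vc at 6 h and was above it at 24 h, by 1.99 ± 0.08 on the log2 scale (edgeR adjusted p = 3.59e-14). ERJ5, a further J-domain protein of the ER membrane, was lower in LP118 at 6 h by 1.43 ± 0.14 (edgeR adjusted p = 2.7e-08), and its difference at 24 h was −0.15 ± 0.15 (0.374). MPD2, a further disulfide isomerase, was lower in LP118 than in LP085-Vc at 6 h by 1.06 ± 0.12 (edgeR adjusted p = 2.4e-07) and higher at 24 h by 0.92 ± 0.13 (3.12e-06). EPS1, a membrane-bound relative on chromosome IX, was higher at 6 h by 1.09 ± 0.09 (2.93e-09) and at 24 h by 0.53 ± 0.09 (2.11e-05). ERV2, an oxidase that works beside Ero1, was lower in LP118 than in LP085-Vc at 6 h by 0.34 ± 0.12 (edgeR adjusted p = 0.0206). It was also lower at 24 h by 0.46 ± 0.12 (edgeR adjusted p = 0.0015), and this 24 h call was lost on the FPKM scale.

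Genes of N-glycosylation, which attaches and builds the glycans of ER proteins, moved over time in the direction of the 10 genes. Of 18 genes 16 fell and ALG9, a mannosyltransferase, rose in LP085-Vc, where 38.3% of all genes were called lower and 37.9% higher. In LP118 13 of 18 fell, where 30.5% of all genes were called lower. The medians were −1.32 and −0.51 on the log2 scale, against 0.00 and −0.05 for all genes. At 24 h 12 of 18 were higher and ALG9 lower in LP118 than in LP085-Vc, where 38.5% of all genes were called higher and 39.2% lower, with a median of 0.57 against −0.01 for all genes. ALG5, which makes the glucose donor of the pathway, had the largest difference, at 2.41 ± 0.16 (edgeR adjusted p = 5.98e-11). At 6 h 4 were higher and 5 lower, where 32.2% of all genes were called higher and 33.8% lower, and the 9 others were not called. Of the 5, WBP1 lies on chromosome V.

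Translocation and signal peptidase genes, which bring proteins into the ER and cut off their signal peptides, had 11 of 12 genes lower at 24 h than at 6 h in LP085-Vc and 10 of 12 in LP118, where 38.3% and 30.5% of all genes were called lower. Their median changes were −1.22 and −0.57, against 0.00 and −0.05 for all genes. At 24 h 9 of 12 were higher in LP118 than in LP085-Vc, where 38.5% of all genes were called higher, led by SEC66, a subunit of the Sec63 complex, at 1.77 ± 0.16 (edgeR adjusted p = 6.6e-09). SBH2, a translocon subunit on chromosome V, was the 1 gene called lower, by 1.90 ± 0.20, where 39.2% of all genes were called lower.

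ER-associated degradation, which returns misfolded proteins to the cytosol for the proteasome, had more genes lower than higher in LP118 at both times. Of its 15 genes 9 were lower and 3 higher in LP118 than in LP085-Vc at 6 h, where 33.8% of all genes were called lower and 32.2% higher. At 24 h 10 were lower and 2 higher, where 39.2% and 38.5% of all genes were. The list had medians of −0.56 and −0.47, against −0.04 and −0.01 for all genes. Of the 15, UBC6 lies on chromosome V and SSM4 on chromosome IX. HRD1, the main ubiquitin ligase of the pathway, was lower at 24 h by 1.23 ± 0.09 (edgeR adjusted p = 1.31e-10), and UBC7, its ubiquitin-conjugating enzyme, by 1.55 ± 0.10 (2.17e-11). MNL1, the mannosidase-like factor that marks misfolded glycoproteins, was higher by 1.29 ± 0.13 at 6 h and by 1.77 ± 0.13 at 24 h (edgeR adjusted p = 2.63e-08 and 2.53e-10). Over time in LP085-Vc 6 of the 15 rose and 6 fell, close to the 37.9% of all genes called higher and the 38.3% called lower. Of the lectin, glycan trimming and prolyl isomerase list, 3 of 8 fell in LP085-Vc, also close to the 38.3% of all genes, FPR2 most, by 2.24 ± 0.14 (edgeR adjusted p = 1.14e-11). FPR2, a prolyl isomerase gene next to EUG1 on the annotation, was 2.01-fold lower in LP118 than in LP085-Vc at 6 h and 2.04-fold higher at 24 h (edgeR adjusted p = 1.1e-06 and 8.6e-07). In that list 4 of 8 genes were higher and 2 lower at each time, where 32.2% of all genes were called higher and 33.8% lower at 6 h, and 38.5% and 39.2% at 24 h.

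**Figure D5:**
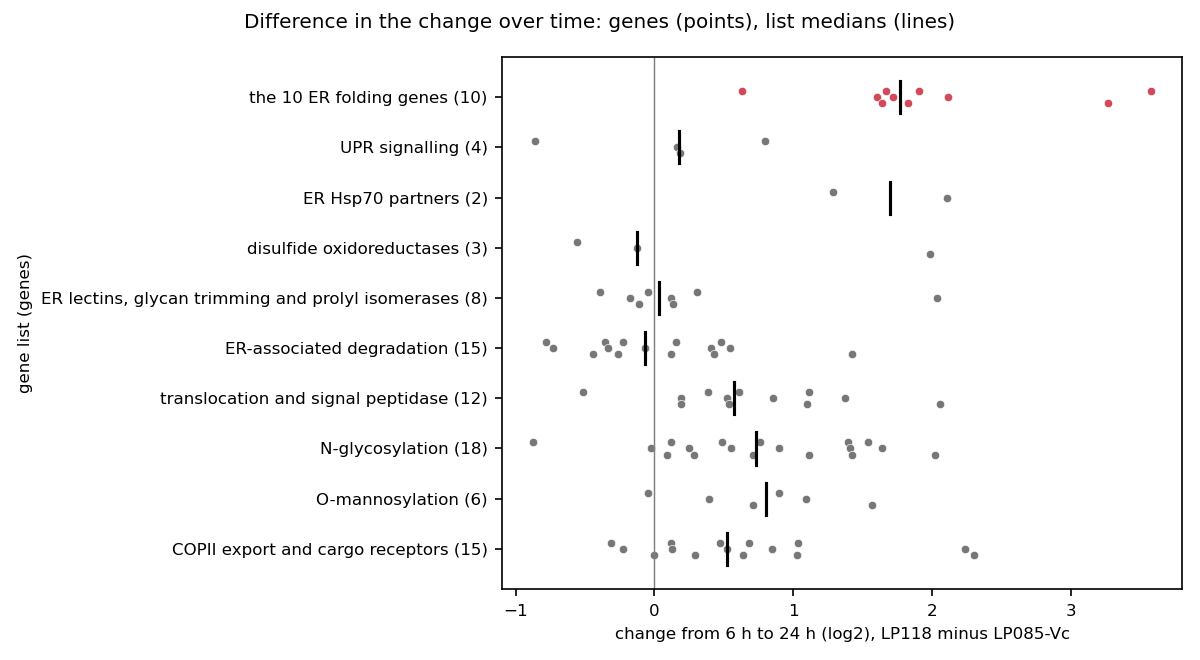
Difference between LP118 and LP085-Vc in the log2 change from 6 h to 24 h (horizontal axis) for each gene (points) of the 10 ER folding genes and of 9 other lists of the pathway, with each list's median as a line and its number of genes in parentheses. The 10 genes lie between 0.63 and 3.58 with a median of 1.77. Medians of the 9 other lists run from −0.13 for disulfide oxidoreductases to 1.70 for ER Hsp70 partners. The median is −0.07 for the 15 genes of ER-associated degradation, 0.73 for N-glycosylation and 0.80 for O-mannosylation.

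Across the 18 libraries the 45 pairs of the 10 genes had Pearson correlations of log2 CPM between 0.618, for HAC1 with MPD1, and 0.989, for LHS1 with EUG1. These libraries share strains and times, so the correlations are a description. The tested genes most like KAR2 over the 18 libraries were HOG1 (0.985), ADH4 (0.984), ERV29 (0.981), GWT1 (0.980) and VEL1 (0.979). Those most like HAC1 were IRC7 (0.970), ALF1 (0.963), ARG3 (0.959), ARI1 (0.956) and SWD3 (0.951), and those most like JEM1 were MCD4 (0.985), SFG1 (0.978), PTI1 (0.973), HNM1 (0.971) and SEC59 (0.966).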

How the data were processed

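Each of the 18 libraries had a table of 6600 genes with a length, a raw read count and a value of FPKM. Counts were deposited by the authors as whole numbers, not normalized. FPKM was computed by the authors, per the file headers. The submitters' processing notes name Bowtie2 2.2.5 as the aligner and R64 as the build. How reads were counted, and with which annotation and strand setting, is not given in the sources used here. Of the identifiers, 5917 matched RefSeq (build R64) and 683 did not. None of the 10 genes overlapped a gene of that annotation, and overlap with unmatched identifiers was not checked. In 283 of 285 genes annotated with separate coding segments the length in the files is the genomic span, any intron included.

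The counts were fitted in edgeR 4.0.16 (R 4.3.3), in 1 quasi-likelihood model with 6 group means, TMM scaling, 12 residual degrees of freedom and a biological coefficient of variation of 11.2%. filterByExpr (minimum count 10, minimum total 15) kept 6131 genes and removed 469. There were 12 contrasts, each with two-sided p-values adjusted by Benjamini-Hochberg over all tested genes, and called below 0.05. CPM used TMM-scaled library sizes. The procedure was tested on simulated data for LP118 against LP085-Vc at 6 h. There 22 of 32 genes lowered 1.5-fold, 27 of 34 raised 1.5-fold and 9 unchanged genes were called. Far fewer genes changed in the simulation than the 4049 called in that comparison of the data. It therefore cannot show how the procedure performs under changes that broad. Alternatives were DESeq2 1.42.0 and its size factors, limma 3.58.1 on log2(FPKM + 1), no filter, a coding-length correction, TMM without chromosomes V and IX, only the compared groups, a replicate block and leaving out each library. Promoters were read from the R64 genome with Python 3.11.15 and Biopython 1.88.

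The deviations of same-numbered libraries from their group means correlated at −0.377 to 0.646 over 45 pairs, and 10 were above 0.1. The highest were 0.646 and 0.434, for replicates 2 and 1 of LP085-Vc 6 h with LP104-17 6 h, whose replicates 3 had −0.318. Since not every pair was above 0.1, replicate numbers were not treated as pairs. The 10 genes and the pathway lists were chosen with earlier results of these data known. All 10 genes may be named in every comparison. Of each list, up to 2 called genes in each direction with the largest change were named, besides all genes of UPR signalling, the Hsp70 partners and the disulfide oxidoreductases. The 5 genes most correlated with KAR2, HAC1 and JEM1 were also named.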

Additional observations from a re-analysis of the deposited data

Results flagged for a closer look

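The change from 6 h to 24 h differed between strains by the interaction test of edgeR for the genes below, each value being a difference in log2 change with its adjusted p below 0.05. For LP118 against LP085-Vc the values of the Hsp70 system were 1.90 for KAR2, 1.71 for LHS1, 3.58 for SIL1, 2.11 for SCJ1 and 1.64 for JEM1. Those of oxidative folding were 0.63 for PDI1, 1.67 for EUG1, 1.83 for MPD1 and 3.26 for ERO1, and that of the regulator HAC1 was 1.60. For LP118 against LP104-17 they were 2.03 for KAR2, 1.39 for LHS1, 3.24 for SIL1, 1.65 for SCJ1 and 1.12 for JEM1. They were 0.83 for PDI1, 1.33 for EUG1, 2.18 for MPD1, 2.99 for ERO1 and 1.67 for HAC1 in the same comparison. For LP104-17 against LP085-Vc they were 0.46 for SCJ1 and 0.52 for JEM1. These were 2 of the 10 genes, close to the 17.8% of all genes called higher, and the SCJ1 call was lost in some fits that left out 1 library. The 2 comparisons of LP118 share its libraries and are not independent of each other.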

How the results depend on the processing

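Of 3120 values for the 10 genes over 26 alternative settings, 3085 kept their side of the threshold, 20 lost a call and 15 gained one. Among values called in the main fit or in the alternative, 0 reversed direction. For values called in neither, the direction was not compared. With the coding-length trend removed, the genes called lower in LP104-17 than in LP085-Vc at 6 h went from 1 to 2. The gene added was SIL1 (−0.28, edgeR adjusted p = 0.0427). With the same trend removed, genes called higher in the interaction of LP104-17 with LP085-Vc went from 2 to 4 and those lower from 0 to 1. With limma on log2(FPKM + 1), genes called lower at 24 h went from 2 to 1 for LP104-17 and from 1 to 0 for LP118 against LP085-Vc, and higher interactions of LP104-17 with LP085-Vc from 2 to 5. On the FPKM scale the median of all genes was 0.19 for LP118 against LP085-Vc at 24 h, 0.13 over time in LP118 and 0.24 in the interaction of these strains. There 2182 genes were called higher and 1212 lower over time in LP118, against 1630 and 1872 on counts, and for LP104-17 against LP085-Vc at 24 h 1897 and 1052, against 1541 and 1681. All genes called for LP104-17 against LP085-Vc at 6 h numbered 708, 344 with only the compared groups and 1206 without replicate 2 of LP104-17 6 h. Leaving out 1 library at a time gave 2 to 5 genes higher and 1 to 2 lower for LP104-17 against LP085-Vc at 24 h, 0 to 1 lower for LP118 against LP085-Vc at 24 h, 6 to 7 lower over time in LP118, and 1 to 4 higher in the interaction of LP104-17 with LP085-Vc. The other counts did not change when a library was left out. ERO1 gained a call for LP104-17 against LP085-Vc at 24 h without replicate 2 of LP118 24 h (adjusted p = 0.0493). The cause was not tested in any of these cases. A replicate block raised the higher interactions of LP104-17 with LP085-Vc from 2 to 3, by adding LHS1 (0.32, adjusted p = 0.0489), and changed no other call of the 10 genes. Of the 18 libraries 5 correlated best with their own replicate number.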

Other observations

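O-mannosylation genes, whose protein products attach mannose to proteins in the ER, had 6 of 6 members lower at 24 h than at 6 h in LP085-Vc and 5 of 6 in LP118, where 38.3% and 30.5% of all genes were called lower. Their median log2 changes were −1.09 and −0.52, against 0.00 and −0.05 for all genes. PMT2, a mannosyltransferase subunit, fell by 2.58 ± 0.11 on the log2 scale in LP085-Vc and by 1.02 ± 0.10 in LP118 (edgeR adjusted p = 2.84e-14 and 7.08e-08). At 24 h 4 of 6 were higher in LP118 than in LP085-Vc, where 38.5% of all genes were called higher and 39.2% lower. PMT4 differed most, at 1.88 ± 0.13 (edgeR adjusted p = 1.34e-10), and PMT3 was lower by 0.35 ± 0.10 (0.00373), a call lost on the FPKM scale.

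Genes of COPII export, the coat and cargo receptors that carry folded proteins from the ER to the Golgi, had 13 of 15 members lower at 24 h than at 6 h in LP085-Vc, 14 of 15 in LP104-17 and 9 of 15 in LP118 by edgeR, where 38.3%, 35.7% and 30.5% of all genes were called lower. Their median log2 changes were −1.07, −1.14 and −0.51, against 0.00, 0.00 and −0.05 for all genes. ERP2, a cargo receptor of the p24 family, stood at a mean of 217 CPM at 6 h and 26.3 CPM at 24 h in LP085-Vc, a change of −3.05 ± 0.15 (edgeR adjusted p = 4.54e-13). SEC12, the exchange factor that starts coat assembly, changed by −2.42 ± 0.10 (2.24e-14). At 24 h both were higher in LP118 than in LP085-Vc, ERP2 by 1.91 ± 0.15 and SEC12 by 2.04 ± 0.10 (edgeR adjusted p = 4.15e-10 and 2.31e-13). Of the 15 genes only 5 were called higher in that comparison and 10 were not called, where 38.5% of all genes were called higher. The list's median there was 0.21, against −0.01 for all genes. SEC24, a coat subunit gene on chromosome IX, was the 1 gene of the list called higher in LP118 than in LP085-Vc at 6 h, and 5 were called lower, where 32.2% and 33.8% of all genes were.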
